A study of Mus musculus with 4 samples.

Results

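The transcripts described here are those of 42 genes of the pre-mRNA splicing machinery, in H460 cells treated with farnesol. Members were all probes of the array, other than its controls, whose gene name began with HNRP, SNRP, SF3A or SF3B. This gave 94 of 41000 probes, and 42 of 30729 gene names. The name groups were 20 genes and 58 probes of the heterogeneous nuclear ribonucleoproteins (hnRNPs, names in HNRP), 13 genes and 20 probes of small nuclear ribonucleoproteins (snRNPs, names in SNRP), and 9 genes and 16 probes of splicing factor 3 (SF3A and SF3B). Of the 94 probes, 93 were bright enough to be tested, and the dim one was the second HNRPM probe.

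H460 is an established human lung carcinoma line. Farnesol is an isoprenoid alcohol, and the cells received 250 µM of it for 4 h or the vehicle, dimethyl sulphoxide, alone. Duplicate experiments each paired a farnesol RNA with its matched vehicle RNA, and each pair was hybridised on 2 two-colour arrays with the dyes exchanged, so 4 arrays hold 2 replicates. The labels do not say whether the duplicates were separate cultures, so the p-values speak only for these 2 samples. They rest on the spread between the 2, moderated by that of all tested probes. Nothing else in the labels distinguishes the farnesol cells from the vehicle cells. All 6 epithelial and carcinoma markers looked up (KRT8, KRT18, KRT19, KRT7, CDH1 and TACSTD1) were well above background on every array. That flag was also set on every array for 5 of 5 leukocyte and 4 of 5 fibroblast and endothelial markers, so it did not tell cell types apart. DDIT3, ATF3, EGR1 and HSPA5, genes known to respond to stress, were at least 2-fold higher with farnesol in both replicates on 6 of 6 probes. The ATF3 probe A_24_P33895 was well above background with farnesol on 4 arrays and with vehicle on 0. It was thus tested only through its farnesol signal.

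Pre-mRNA leaves RNA polymerase wrapped in hnRNPs, abundant RNA-binding proteins that steer splice site choice and the stability and export of mRNA. Introns are removed by the spliceosome, whose snRNP particles each hold a small nuclear RNA, a ring of Sm proteins and particle-specific proteins. U1 snRNP recognises the start of the intron, and U2 snRNP, with SF3A and SF3B as parts of it, recognises the branch point.

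Each value is the log2 of the farnesol signal over the vehicle signal, so one below 0 means less signal with farnesol. The values compare shares of the labelled RNA, and less RNA per cell and a smaller share of the total cannot be told apart. Where 2 array values are given for a replicate, the array with farnesol in Cy5 comes first. Levels were not compared between probes. The test was limma's moderated test over all 37349 tested probes with Benjamini-Hochberg adjustment at 0.05.

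Splicing genes were more often lower than higher with farnesol, by small amounts. Of the 93 member probes, 46 (49.5%) were lower on 4 of 4 arrays, where 22.5% of all tested probes were. Only 9 members (9.68%) were higher on 4 of 4 arrays, against 19.8% of all tested probes. The median log2 ratio of the members was -0.23, against 0.01 over all tested probes, and single probes ranged from -1.06 to 0.51. At least 2-fold lower in both replicates were 2 member probes (2.15%), one of HNRPH3 and one of HNRPUL1, against 0.206% of all probes. No member was at least 2-fold higher in both replicates, a criterion that 0.635% of all probes met.

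No member passed limma's test, for which the smallest adjusted p of a member was 0.183. Over the whole array 0.0107% of probes passed it, which were the 4 probes of NR4A1, IER2, JUN and EGR1. At an unadjusted p under 0.05, 28 members (30.1%) were lower, against 11.0% of all probes, and 5 (5.38%) were higher, against 3.81%. All 5 higher probes, and some of the lower ones, were probes of HNRPA1. A fit of all 4 arrays with the replicate as a random block called 24 members, 22 of them lower, which is 25.8% of the members against 10.6% of all probes. That fit counts dye-swapped arrays of the same RNA as samples, with an estimated correlation of 0.534 within a replicate.

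Member probes were bright, with a median log2 intensity of 9.98 against 7.31 over all tested probes. Among the brightest 9337 probes, a set of equal size to each of 3 dimmer ones, 34.0% were lower on 4 of 4 arrays and 28.1% higher. Of the 73 members in that brightest set, 53.4% were lower and 12.3% higher. The split also moved with the scaling. Centring each array on its median, without the loess step, gave 52 members lower and 2 higher on 4 of 4 arrays, so that 96.3% rather than 83.6% of the members with one sign on all arrays were lower. Over all probes the same share moved from 53.1% to 60.7%. The group medians were then -0.43 for HNRP, -0.41 for SNRP and -0.34 for SF3.

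**Figure D1:**
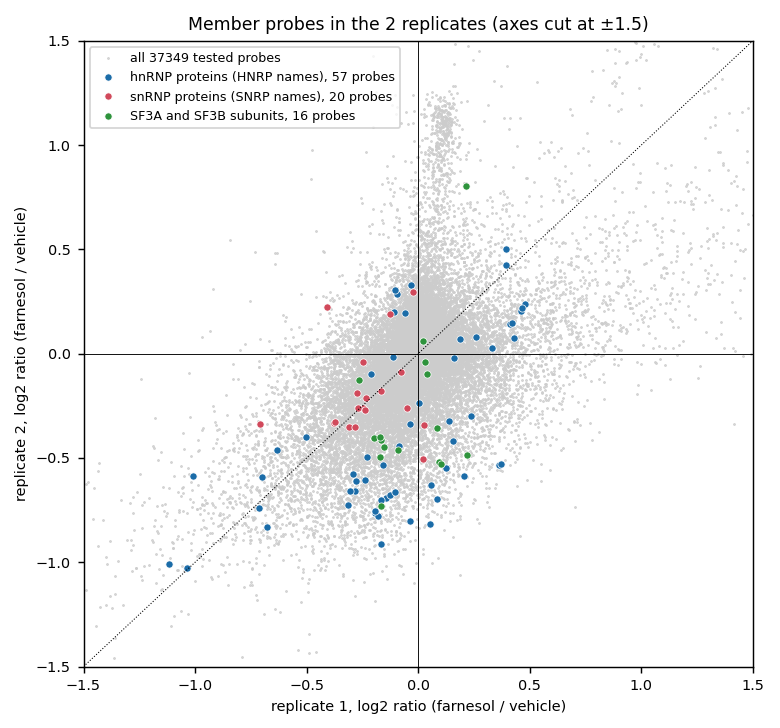
Log2 ratio of farnesol over vehicle in replicate 1 (horizontal) and replicate 2 (vertical) for each tested probe. Grey points are all 37349 tested probes, coloured points the 93 members by name group, and the dotted line marks equal values. The median of the members lies at -0.11 across and -0.35 down, and many hnRNP and SF3 points lie near 0 across and below 0 down.

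The replicates differed in the size of the values. The median of the members was -0.11 in replicate 1 and -0.35 in replicate 2, while the median of all probes was 0.00 in each. Replicate 2 lay below replicate 1 for 64 of 93 members (68.8%), against 49.5% of all probes. This held for 42 of 57 HNRP probes and 13 of 16 SF3 probes, but for 9 of 20 SNRP probes. Within 0.25 of 0 in replicate 1 and at -0.4 or below in replicate 2 were 29 members, of which 19 were HNRP, 9 SF3 and 1 SNRP. That is 31.2% of the members, against 4.05% of all tested probes, which were mostly dimmer and were not matched for brightness. The bounds of this count were not planned in advance. Across the members the replicates correlated at r = 0.495, and across all tested probes at 0.680, a description over probes that share genes and arrays. Dye-swapped arrays of a replicate correlated at 0.861 and 0.935 across members, and arrays of different replicates at 0.404 to 0.533. Over all tested probes these values were 0.942, 0.940 and 0.629 to 0.683.

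The snRNP proteins were the most even group by the median SD between replicates. Of 20 SNRP probes, 14 (70%) were lower on 4 of 4 arrays and 0 were higher, against 22.5% and 19.8% of all tested probes. Among the brightest 9337 probes these shares were 34.0% and 28.1%. An unadjusted p by limma under 0.05 was found for 11 (55%), all lower, against 11.0% lower over all tested probes. The group stood at a median of -0.25 in replicate 1 and -0.26 in replicate 2. Its median SD between replicates was 0.041, against 0.25 for HNRP probes, 0.22 for SF3 probes and 0.077 over all tested probes. The same sign in both replicates was found for 15 of 20 SNRP probes (75%), against 65.2% of all tested probes. Across SNRP probes the replicates correlated at r = 0.153, against 0.608 for HNRP and 0.397 for SF3. No SNRP probe passed the adjusted test, the smallest adjusted p by limma being 0.203. The medians of the groups over both replicates were close, at -0.24 for SNRP, -0.26 for HNRP and -0.21 for SF3.

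The Sm proteins form the ring around the small nuclear RNA that the U1, U2, U4 and U5 particles share. Of 9 probes for 7 Sm genes (SNRPB, SNRPD1, SNRPD2, SNRPD3, SNRPE, SNRPF and SNRPG), 7 were lower on 4 of 4 arrays, and the median of the 9 was -0.27. The lowest was an SNRPD1 probe (A_32_P148672), with log2 ratios of -0.44 and -0.32 on the arrays of replicate 1 and -0.41 and -0.25 on those of replicate 2. Its mean was -0.36 ± 0.034 (SD, n = 2), a 1.28-fold lower signal (adjusted p by limma 0.203). All arrays lay below 0, the replicates overlapped, and the second SNRPD1 probe (A_23_P107644) gave -0.35.

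For SNRPD3 (A_23_P132216) the log2 ratios were -0.43 and -0.31 on the arrays of replicate 1 and -0.32 and -0.34 on those of replicate 2, with a mean of -0.35 ± 0.029 (SD, n = 2) and an adjusted p by limma of 0.203. The replicates of SNRPD3 overlapped as well. Means further down the ring were -0.32 for SNRPE, -0.27 and -0.25 for the SNRPF probes and -0.23 for SNRPG, each lower on 4 of 4 arrays. The remaining Sm genes had no single sign. SNRPD2 was at -0.41 in replicate 1 and 0.22 in replicate 2, the arrays of each replicate lying on one side of 0. A probe outside the name rule that the files describe as similar to the Sm D2 protein (ENST00000277860) gave nearly the same values, -0.40 in replicate 1 and 0.22 in replicate 2. SNRPB followed the dye instead, with -0.52 and 0.03 in replicate 1 and -0.21 and 0.13 in replicate 2, lower with farnesol in Cy5 in each pair.

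U2 snRNP has its own proteins SNRPA1 and SNRPB2, which bind each other on U2 RNA. SNRPA1 (A_32_P28685) was the lowest SNRP probe, with -0.77 and -0.65 on the arrays of replicate 1 and -0.34 and -0.33 on those of replicate 2. Its mean was -0.52 ± 0.26 (SD, n = 2), 1.44-fold lower (adjusted p by limma 0.267), and both arrays of replicate 1 lay below both of replicate 2. SNRPB2 had the opposite order of replicates, with 0.02 in replicate 1 and -0.51 in replicate 2 on its brighter probe and 0.02 in replicate 1 and -0.34 in replicate 2 on the other.

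Among the U1-specific proteins, SNRPC, which stabilises pairing with the start of the intron, was lower on 4 of 4 arrays on both probes, with means of -0.33 ± 0.028 (SD, n = 2) and -0.22 ± 0.018 (SD, n = 2). SNRPA, which binds a loop of U1 RNA, was lower on 4 of 4 arrays on all 3 probes, with means from -0.25 to -0.16. SNRP70 (U1-70K) was not: its brighter probe was at -0.02 in replicate 1 and 0.30 in replicate 2 and the other at -0.13 in replicate 1 and 0.19 in replicate 2. SNRPN, an Sm protein mostly of brain, gave a dim signal here and a mean of -0.08.

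**Figure D2:**
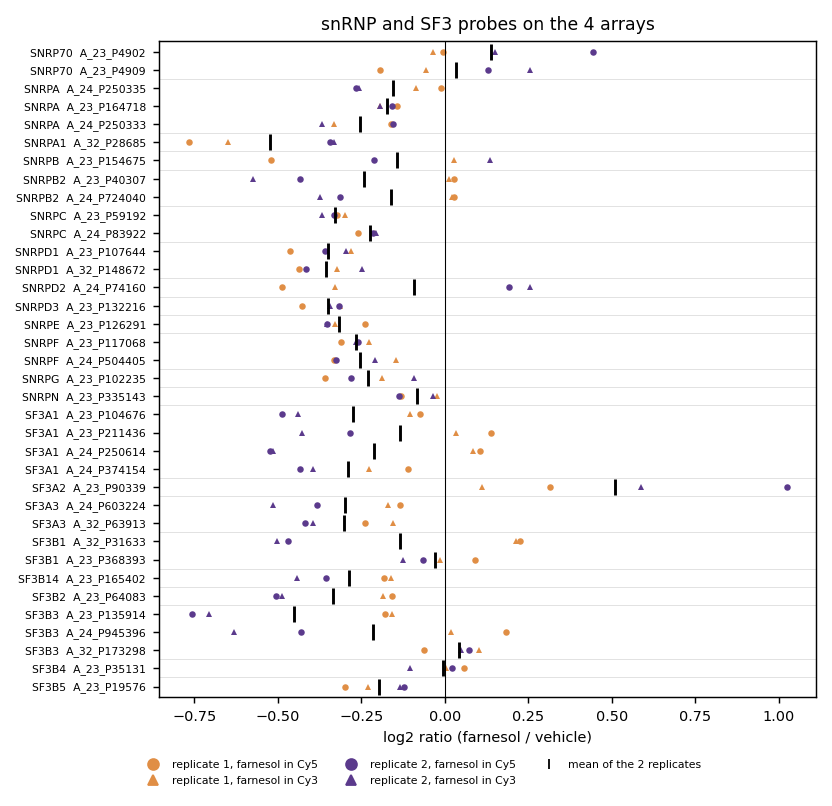
Log2 ratio of farnesol over vehicle for each tested snRNP and SF3 probe, with a point per array (colour for the replicate, shape for the dye of farnesol) and a bar at the mean of the 2 replicates. Most SNRP points of both replicates fall together left of 0, with 14 of 20 probes below 0 on 4 arrays, whereas SF3 points of replicate 2 lie left of those of replicate 1 for 13 of 16 probes. SF3A2 stands alone on the right at a mean of 0.51.

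SF3A and SF3B join U2 snRNP before it can bind the branch point. Of 16 SF3 probes, 8 (50%) were lower on 4 of 4 arrays and 1 (6.25%) was higher. Over all tested probes these shares were 22.5% and 19.8%. The group median was -0.03 in replicate 1 and -0.41 in replicate 2. The smallest adjusted p by limma in this group was 0.301.

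SF3B3, a large scaffold subunit of SF3B, had the lowest SF3 probe (A_23_P135914), with -0.18 and -0.16 on the arrays of replicate 1 and -0.76 and -0.71 on those of replicate 2. Its mean was -0.45 ± 0.40 (SD, n = 2) (adjusted p by limma 0.418), and the replicates did not overlap. The other SF3B3 probes gave means of -0.21 and 0.04, the latter near the lowest brightness of the group. SF3B2 (A_23_P64083), which contacts RNA beside the branch point, read -0.16 and -0.19 in replicate 1 and -0.51 and -0.49 in replicate 2. The mean for SF3B2 was -0.33 ± 0.23 (SD, n = 2) (adjusted p by limma 0.36), again with replicate 2 below replicate 1 on every array. SF3A3 was lower on 4 of 4 arrays on both probes, and its lower one (A_32_P63913) read -0.24 and -0.16 in replicate 1 and -0.42 and -0.39 in replicate 2. That probe had a mean of -0.30 ± 0.15 (SD, n = 2) (adjusted p by limma 0.301).

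SF3B1, the subunit that holds the branch point and is mutated in some leukaemias, had opposite signs in the replicates. Its brighter probe (A_32_P31633) read 0.22 and 0.21 in replicate 1 and -0.47 and -0.50 in replicate 2, so the mean of -0.13 ± 0.50 (SD, n = 2) stands for no single direction, and its dim probe gave -0.03. SF3B14, which touches the branch point adenosine, and SF3B5, a small SF3B subunit, were lower on 4 of 4 arrays at -0.29 and -0.20. SF3B4 was at -0.01 on a dim probe. The 4 SF3A1 probes had means between -0.29 and -0.14, and all lay lower in replicate 2.

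SF3A2, a zinc finger subunit of SF3A, was the highest of all members. Its probe (A_23_P90339), the brightest of the members, read 0.32 and 0.11 on the arrays of replicate 1 and 1.02 and 0.59 on those of replicate 2. The mean was 0.51 ± 0.42 (SD, n = 2), 1.42-fold higher (adjusted p by limma 0.39). All 4 arrays were above 0, replicate 2 lay above replicate 1, and in each replicate the array with farnesol in Cy5 was the higher one. The probe belongs to a set of 444 of the 37349 tested probes, within 0.25 of 0 in replicate 1 and at 0.8 or above in replicate 2. These bounds were set after the values were seen. In that set the median was 1.26 on the replicate 2 array with farnesol in Cy5 and 0.86 on the swapped one, and 96.6% of the probes were higher on the former. Of the 93 members only SF3A2 was in the set, near both bounds at 0.21 in replicate 1 and 0.81 in replicate 2. The part of that pattern in the value of SF3A2 was not tested.

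The hnRNP genes held the largest differences and the widest range. Of 57 HNRP probes, 24 (42.1%) were lower on 4 of 4 arrays and 8 (14%) were higher. HNRPA1 alone supplied 6 of the lower and 6 of the higher probes. Without its 13 probes, 18 of 44 HNRP probes (40.9%) were lower and 2 (4.55%) higher. Over all tested probes the shares lower and higher on 4 of 4 arrays were 22.5% and 19.8%. Among the brightest 9337 probes they were 34.0% and 28.1%.

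HNRPH3 belongs to the family that binds G-rich elements near splice sites. Its lowest probe (A_23_P115824) read -1.09 and -1.15 on the arrays of replicate 1 and -1.04 and -0.98 on those of replicate 2. The mean was -1.06 ± 0.076 (SD, n = 2), 2.09-fold lower (adjusted p by limma 0.183), and all arrays lay close together. The second HNRPH3 probe (A_24_P338187) read -0.96 and -1.06 in replicate 1 and -0.52 and -0.65 in replicate 2, lower on each array by less in replicate 2, with a mean of -0.80 ± 0.30 (SD, n = 2). Its relatives HNRPH1, HNRPH2 and HNRPF were nearer 0. HNRPH2 had a mean of -0.43 ± 0.38 (SD, n = 2) and HNRPF of -0.19 ± 0.21 (SD, n = 2), each lower on 4 of 4 arrays. The 3 HNRPH1 probes ranged from -0.09 to -0.03.

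HNRPUL1, a relative of hnRNP U, was the gene whose probes differed most. One probe (A_23_P502612) read -0.99 and -1.08 on the arrays of replicate 1 and -1.12 and -0.94 on those of replicate 2, with a mean of -1.03 ± 0.0064 (SD, n = 2), 2.05-fold lower (adjusted p by limma 0.183). The probe A_24_P376294, of similar brightness, read -0.03 and -0.09 in replicate 1 and 0.24 and 0.15 in replicate 2, with a mean of 0.07 ± 0.18 (SD, n = 2). The third probe (A_24_P108351) was dim and averaged -0.15 ± 0.083 (SD, n = 2), with -0.25 and -0.18 in replicate 1 and -0.21 and 0.01 in replicate 2. Its mean moved to -0.39 without the offset and to -0.51 with the scanner software's processed signals. All 3 probes list the same transcripts first in the files, so the files do not say which of them stands for the gene.

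HNRPD (AUF1) binds AU-rich elements and promotes the decay of the mRNAs that carry them. Its 3 probes were lower on 4 of 4 arrays. The brightest (A_23_P58353) read -0.76 and -0.60 in replicate 1 and -0.77 and -0.90 in replicate 2, with a mean of -0.76 ± 0.11 (SD, n = 2). The others had means of -0.73 ± 0.02 (SD, n = 2) and -0.64 ± 0.077 (SD, n = 2), and the adjusted p by limma was 0.183 for each of the 3. The dimmest of them (A_24_P123245) stood at -1.01 without the offset and at -1.07 with the scanner software's processed signals. In no HNRPD probe did the replicates separate by much, so the gene was lower by a similar amount in both.

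HNRPDL, a relative of HNRPD, split by probe. The probe listed first under transcript variant 1 (A_24_P9090) read -0.25 and -0.39 in replicate 1 and -0.70 and -0.75 in replicate 2, with a mean of -0.52 ± 0.29 (SD, n = 2). The probe listed first under variant 2 (A_23_P213153) read 0.22 and 0.30 in replicate 1 and 0.08 and 0.08 in replicate 2, with a mean of 0.17 ± 0.13 (SD, n = 2). Each probe had the same sign on 4 of 4 arrays, but the higher one moved to -0.045 once loess was replaced by median centring. The array files list both transcripts for each probe. HNRPAB, which shares their domain structure, was lower on its 1 probe, with -0.52 and -0.74 in replicate 1 and -0.36 and -0.57 in replicate 2 and a mean of -0.55 ± 0.12 (SD, n = 2).

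HNRPA1, an abundant hnRNP that silences exons and shuttles between nucleus and cytoplasm, was covered by 13 probes that fell into separate sets. The 6 brighter probes, with log2 intensities from 12.6 to 13.7, were all lower on 4 of 4 arrays, with means from -0.48 to -0.40. The 7 dimmer ones, from 9.98 to 11.8, were higher on every array measured, with means from 0.25 to 0.45. No HNRPA1 probe lay between.

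The lowest of them (A_32_P19431) read -0.34 and -0.28 in replicate 1 and -0.65 and -0.66 in replicate 2, with a mean of -0.48 ± 0.25 (SD, n = 2). The highest (A_32_P113436) read 0.29 and 0.50 in replicate 1 and 0.42 and 0.58 in replicate 2, with a mean of 0.45 ± 0.076 (SD, n = 2), and the next were 0.41 ± 0.022 (SD, n = 2) (A_24_P517901) and 0.36 ± 0.17 (SD, n = 2) (A_32_P168202). Those 2 read 0.28 and 0.51 in replicate 1 and 0.35 and 0.50 in replicate 2, and 0.35 and 0.62 in replicate 1 and 0.14 and 0.34 in replicate 2. No array of the lower probes overlapped an array of the higher ones. The means kept their sides without loess, where the sets lay at -0.68 to -0.61 and 0.03 to 0.24. Single arrays did not all do so. With that scaling 2 of all member probes were higher on 4 of 4 arrays, against 9 with loess.

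The transcript listed first went with the sets in part. All 6 lower probes list transcript variant 2 first, and 5 of the 7 higher ones list variant 1 first, 1 lists variant 2 and 1 lists a cDNA clone. Yet 9 of the 13, including all 6 lower probes and 3 higher ones, list both transcripts, so the files do not assign the sets to variants. HNRPA1 has many processed pseudogene copies, and 3 probes outside the name rule that the files describe as hnRNP A1 or similar to it fell on either side. LOC402562 was at -0.46 ± 0.22 (SD, n = 2), LOC341333 at 0.37 ± 0.062 (SD, n = 2) and the probe named ENST00000357495 at 0.26 ± 0.23 (SD, n = 2). Which copies each probe bound was not tested.

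**Figure D3:**
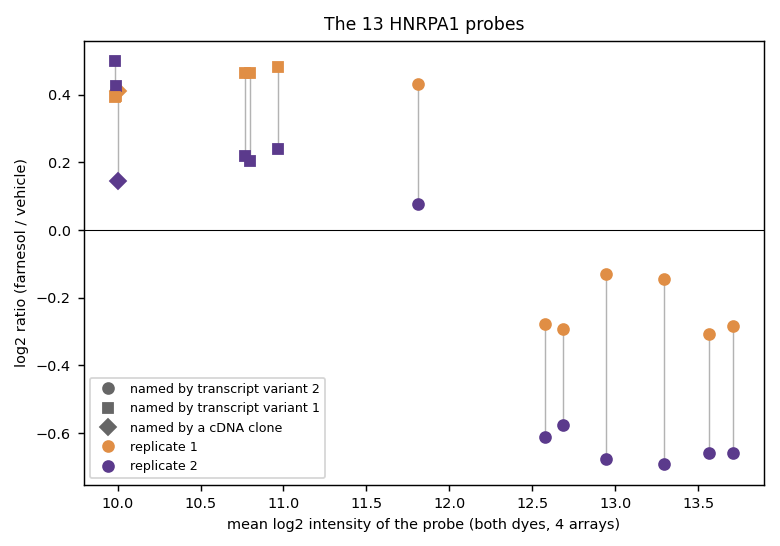
Log2 ratio of farnesol over vehicle (vertical) against the mean log2 intensity (horizontal) of the 13 HNRPA1 probes, with a line joining replicate 1 and replicate 2 of each probe and a shape for the transcript the files list first. The 7 dimmer probes lie above 0 and the 6 brighter ones below, in both replicates.

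HNRPA2B1, a close relative of HNRPA1, was higher on 4 of 4 arrays on its 1 probe, with 0.38 and 0.47 in replicate 1 and 0.20 and 0.10 in replicate 2 and a mean of 0.28 ± 0.19 (SD, n = 2). With median centring that mean was 0.05. HNRPA3 probes disagreed: of 6, the brightest (A_32_P159347) had a mean of -0.48 ± 0.40 (SD, n = 2), 3 dimmer ones had means from 0.05 to 0.10, and the other 2 were at -0.42 and -0.08. Of the 3 probes named for its copy HNRPA3P1, A_23_P17163 and A_32_P77502 share listed transcripts with HNRPA3 probes, so for them the names cannot be told apart. They had means of -0.48 and -0.48, and the remaining probe (A_23_P86660) of -0.26. HNRPA0 had opposite signs in the replicates, at 0.36 in replicate 1 and -0.53 in replicate 2 on its brighter probe, and a mean of 0.18 on the other.

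Several of the core hnRNPs were lower mainly in replicate 2. HNRPM was at -0.16 in replicate 1 and -0.91 in replicate 2, and HNRPR, a relative of SYNCRIP, at 0.05 in replicate 1 and -0.81 in replicate 2. HNRPK, which binds C-rich sequence, was at 0.06 in replicate 1 and -0.63 in replicate 2 on its brighter probe and -0.10 in replicate 1 and -0.66 in replicate 2 on the other. HNRPU, a nuclear scaffold protein, was at 0.15 in replicate 1 and -0.42 in replicate 2 on its brightest probe. HNRPC, which coats U-rich tracts in nascent transcripts, differed by probe, with its brightest at 0.19 in replicate 1 and 0.07 in replicate 2 and the next at 0.08 in replicate 1 and -0.70 in replicate 2. Apart from the brightest HNRPC probe, the SD between replicates in the values of this paragraph was larger than the size of the mean or close to it. The smallest adjusted p by limma among these genes was 0.448, for HNRPM. The remaining probes had means of -0.21 and -0.12 for HNRPC and -0.19 and 0.15 for HNRPU.

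HNRPL, which binds CA repeats, was lower on 4 of 4 arrays on its 3 probes, with means from -0.42 to -0.34. Its relative HNRPLL, known from the splicing of CD45 in T cells, was lower on its brighter probe at -0.45 ± 0.073 (SD, n = 2), while its dim one gave 0.07.

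**Figure D4:**
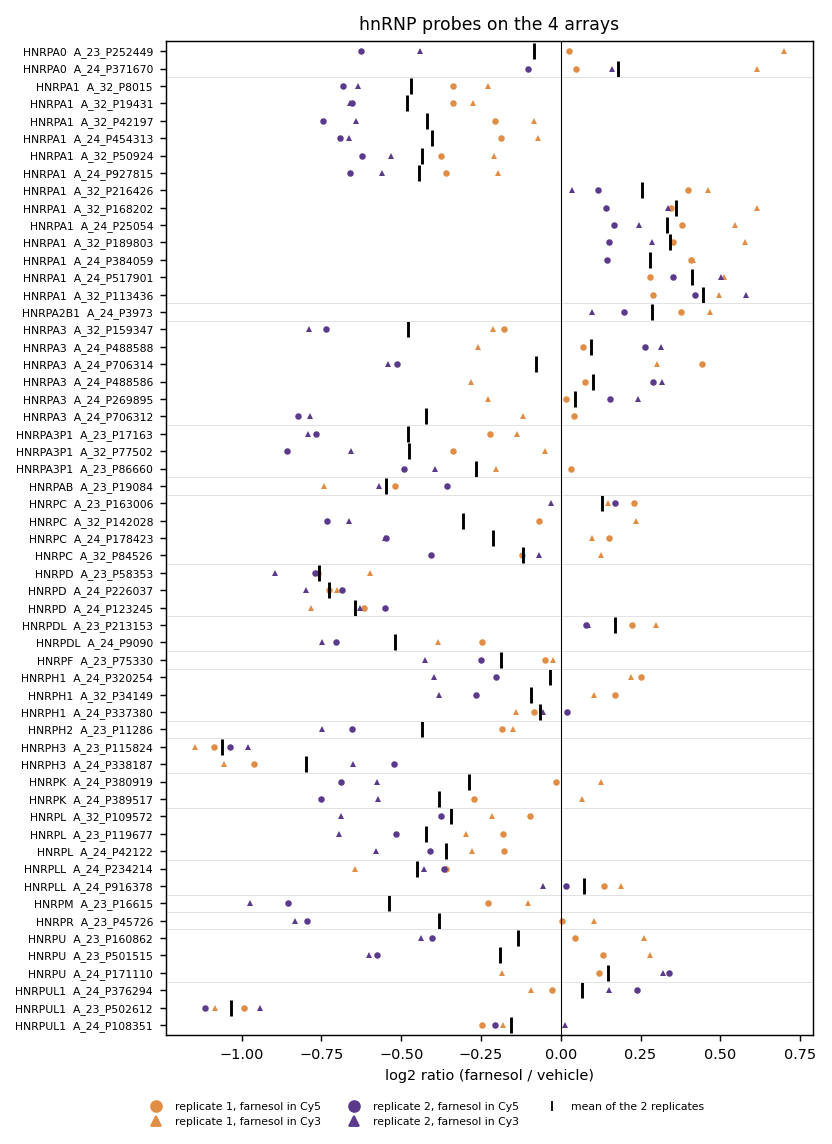
Log2 ratio of farnesol over vehicle for each of the 57 tested hnRNP probes, grouped by gene and ordered by brightness within a gene, with a point per array (colour for the replicate, shape for the dye of farnesol) and a bar at the mean of the 2 replicates. 1 probe each of HNRPH3 and HNRPUL1 lies near -1 on 4 arrays, HNRPD follows at -0.76 to -0.64, and the HNRPA1 probes split into a set on either side of 0.

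Counted by gene, the picture was the same in direction. Of 42 genes, 20 had every tested probe lower on 4 of 4 arrays (9 SNRP, 7 HNRP and 4 SF3), and 2 had every probe higher (HNRPA2B1 and SF3A2, each with 1 probe). With median centring the means of these 2 were 0.05 and 0.32. The rule of every probe was not counted over all names on the array, and a gene with 1 tested probe meets it more easily. Using the brightest probe of each gene, 26 of 42 genes (61.9%) were lower on 4 of 4 arrays and 3 (7.14%) higher, against 21.9% and 20.9% over all names on the array treated alike. Of the 24 genes with more than 1 tested probe, 15 had means of one sign on all probes. The means of a gene's probes differed by at least 0.5 in 5 genes, all HNRP, and by at least 1 in HNRPUL1 only.

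Other genes of splicing were looked up in 7 lists of 95 genes, of which 89 were on the array. Of their 149 tested probes, 81 (54.4%) were lower on 4 of 4 arrays and 13 (8.72%) higher, beside the 22.5% and 19.8% of all probes. The median was -0.17, 4 probes were at least 2-fold lower in both replicates, 0 were 2-fold higher and 0 passed limma's test. At an unadjusted p under 0.05, 53 of them were lower and 3 higher.

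The genes that build the snRNPs gave the lowest median over both replicates. Their list had medians of -0.25 in replicate 1 and -0.57 in replicate 2. In replicate 1 the LSM list was lower, with -0.34 there and -0.29 in replicate 2. In the list of the SMN complex and its partners, which load the Sm ring onto small nuclear RNA, 13 of 17 probes were lower on 4 of 4 arrays and 0 higher, with a median of -0.39. STRAP, which binds the SMN complex, was at least 2-fold lower in both replicates on both probes. The lower of them (A_23_P13852) read -1.34 and -1.31 in replicate 1 and -1.12 and -1.29 in replicate 2, with a mean of -1.26 ± 0.082 (SD, n = 2). The highest of that list, NCOA6IP, an RNA cap methyltransferase, was at 0.09. The LSM proteins, relatives of the Sm proteins that form rings on U6 RNA, on U7 RNA and on mRNAs bound for decay, were lower on 4 of 4 arrays in 10 of 15 probes, with a median of -0.27, from -0.48 for LSM10, a U7 protein, to 0.14 for LSM8, a U6 protein. Among U4/U6.U5 tri-snRNP proteins, 16 of 23 probes were lower and 1 higher, from -0.73 for PRPF8, the core of the active site, to 0.16 for PRPF3.

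Genes acting with U2 and SF3 were more mixed. Of 29 probes for factors that recruit U2 or bind SF3B, 13 were lower on 4 of 4 arrays and 5 higher, and the median was -0.08. DHX15, a helicase that takes spliceosomes apart, was the lowest of all list genes: its probe read -1.80 and -1.72 in replicate 1 and -1.13 and -1.18 in replicate 2, with a mean of -1.46 ± 0.42 (SD, n = 2). RBM5, an RNA-binding regulator of apoptosis genes, was the highest of that list at 0.48 ± 0.42 (SD, n = 2). Factors of catalytic activation and the splicing steps had 9 of 27 probes lower and 1 higher, from -0.49 for PPIL1 to 0.28 for SLU7. For the minor spliceosome, 2 of 6 genes were on the array, and the 3 probes lay between -0.11 and -0.02, both values of PDCD7.

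RNA-binding proteins related to the hnRNPs but named otherwise had 20 of 35 probes lower on 4 of 4 arrays and 6 higher, with a median of -0.22. ELAVL1 (HuR), which stabilises mRNAs with AU-rich elements, was lowest on 1 probe (A_23_P208477), with -1.55 and -1.64 in replicate 1 and -1.03 and -1.13 in replicate 2 and a mean of -1.34 ± 0.36 (SD, n = 2). Its other probes gave -0.64 and -0.23. CIRBP, the cold-inducible RNA-binding protein, was highest on 1 of 4 probes (A_23_P312652), with 1.40 and 1.30 in replicate 1 and 1.0 and 0.93 in replicate 2 and a mean of 1.16 ± 0.27 (SD, n = 2), while its other probes lay between -0.03 and 0.13. The CIRBP probes thus disagreed by more than the replicates of any of them.

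**Figure D5:**
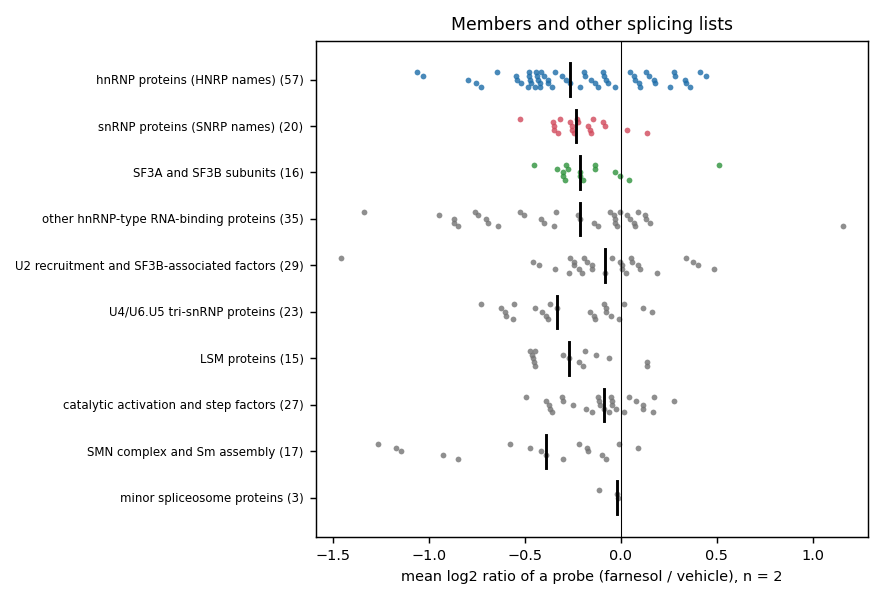
Mean log2 ratio of farnesol over vehicle (horizontal, n = 2 replicates) of each tested probe, for the 3 member groups in colour and the 7 other splicing lists in grey, with the number of probes in brackets and a bar at each median. The medians lie between -0.39 for the SMN list and -0.02 for the minor spliceosome list.

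The authors' deposited table of ratios and p-values holds 7018 probes, beside 41000 on the array, and 30 of the 94 member probes. No probe in it has a p above 0.001 by the authors' own unnamed test. Lower in the authors' deposited table were 18 members and higher 12, a split that was not counted over all 7018 probes. All 30 had the sign of the replicate 1 values given here, which is no separate evidence because the table follows replicate 1. HNRPH3 had the lowest ratio of a member there, 0.415, and HNRPUL1 the next, 0.429. The HNRPA1 probe A_32_P19431 was lower, at 0.819, and the other HNRPA1 probes there were higher, from 1.36 to 1.44. HNRPA1 probes thus made up most of the higher members in the authors' deposited table. Its values followed replicate 1 across probes (r = 0.972), so SF3B1, HNRPH1 and HNRPA3 probes that were lower in replicate 2 stand in the authors' deposited table as higher, at 1.20, 1.21 and 1.35.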

How the data were processed

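Arrays were scanned and read with Agilent Feature Extraction (8.1.1.1 in the file headers, 8.1 in the labels). The deposited intensity values are each spot's mean and its local background median, uncorrected, per the file headers. Processed intensity values were background-subtracted and dye-normalized by that software, and the deposited log10 of the Cy5 to Cy3 ratio was made from them, per the file headers. The authors' deposited ratio and p-value for each probe come without a named program, and the second copy held identical values. The organism label names the mouse, but the protocols in the labels and the probes are human. Direction follows the dyes in the labels.

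From the intensities, R 4.3.3, limma 3.58.1 (with version 1.17.8 of data.table to read files) gave normexp correction (offset 50, which shrinks dim ratios) and loess within each array, with controls and outlying spots at weight 0. Swapped arrays were turned, and spots of a probe and then arrays of a pair were averaged. Tested probes were well above background for farnesol or for vehicle on 1 or more arrays of both replicates. The moderated test was two-sided, with 1 residual degree of freedom and 1.85 from moderation. No member was saturated, and 82.7% to 93.0% of spots per channel were well above background. The number of arrays limits precision. The code was tested on simulated data.

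The members and lists were chosen with earlier results of these data known. Array values were given for members at least 2-fold different in both replicates, for the 3 highest and 3 lowest of each name group with one sign on all arrays, and where probes of a gene differed by at least 1 in log2. Of the other lists, the 2-fold genes and the extremes were named. Other members, and the set of probes high in replicate 2, were picked after their values were seen. Alternatives covered the offset, processed signals, median centring, dim and saturated spots, 1 value per gene, each replicate left out, a random block and other moderation. Gene symbols are as the array files print them and may be old. Probe sequences and gene positions are not used here.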

Additional observations from a re-analysis of the deposited data

How the results depend on the processing

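With arrays centred on their medians and no loess, 2 members were higher on 4 of 4 arrays, the median of all members was -0.42 and that of SNRP members -0.41, and 11 of 93 member probes changed sign. Of these 11, HNRPDL (A_23_P213153, -0.045) and SNRPN (0.025) had one sign on 4 of 4 arrays before. With the brightest probe per gene 26 genes were lower on 4 of 4 arrays, 3 higher and 1 at least 2-fold lower, and with probes averaged by gene 25, 2 and 0. The mean of a member probe moved by more than its SD between replicates in 36 probes with median centring, in 18 without the offset and in 16 with processed signals, and 1 changed sign in each of the latter 2. With either of these, 3 members were at least 2-fold lower in both replicates. The 4-array fit with the replicate as a random block called 24 members. Without replicate 1, 67 members (72%) were lower and 18 (19.4%) higher on the remaining arrays, against 39.2% and 39.9% of all probes. Without replicate 2, 52 (55.9%) were lower and 28 (30.1%) higher, against 34.7% and 36.1%. With each replicate left out, medians were -0.35 to -0.11 for all members and -0.53 to -0.10 for HNRP. They were -0.26 to -0.25 for SNRP and -0.41 to -0.03 for SF3, and 2 to 3 members were at least 2-fold lower. No member passed limma's test under any of the other alternatives with a test, where the smallest adjusted p of a member ranged from 0.0563 (median centring) to 0.192 (no filter on dim probes), beside 0.0641 without the offset and 0.0719 with processed signals. Over all probes, 138 passed without the offset, 87 with processed signals, 34 with median centring, 15 with trend and robust moderation, 6 with the strict filter, 3 with no filter, 3 with the brightest probe per gene, 2 with probes averaged by gene, and 3951 with the random block, against 4. With saturated spots left out 0 passed limma's test, although 5523 probes had an unadjusted p under 0.05, so all 4 calls ended there. With 2 replicates, small differences have little room to pass an adjusted test, and the offset shrinks dim probes such as SNRPN, at -0.34 without it against -0.08. The cause of these changes was not tested.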
